A study of Mus musculus with 12 samples.

Results

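The genes of transforming growth factor beta (TGF-beta), bone morphogenetic protein (BMP) and activin signalling were followed through 12 liver samples of C57BL/6J wild-type mice, which carry no engineered allele. The members are the protein-coding genes whose symbols name a TGF-beta, BMP, growth differentiation factor (GDF) or activin ligand, one of their receptors, a SMAD protein, a latent TGF-beta binding protein or a secreted antagonist. They were picked by symbol, with earlier results of these data known, and number 63 of the 41325 genes listed. The CDDO-Me group (n = 4) had nonalcoholic steatohepatitis (NASH) and received CDDO-Me by mouth at 10 mg/kg over 8 weeks. The NASH vehicle group (n = 4) had the same disease model and received vehicle, and the control group (n = 4) is labelled Control, with no NASH diet named, and received vehicle. CDDO-Me is bardoxolone methyl, a synthetic triterpenoid known as an activator of the transcription factor NRF2. The labels name the NASH diet CDAHFD, the usual abbreviation of a choline-deficient, L-amino acid-defined high-fat diet. The labels state neither the diet of the controls nor the age or sex of the mice. They number the replicates without saying that each is a separate mouse, so the p-values below measure the spread between these samples, which may be technical.

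Ligands of this family are secreted dimers that bring together type I and type II receptor kinases. TGF-beta and activin receptors activate SMAD2 and SMAD3, and BMP receptors activate SMAD1, SMAD5 and SMAD9. Either set joins SMAD4 and enters the nucleus, while SMAD6 and SMAD7 restrain the pathway. In liver, TGF-beta is best known for driving stellate cells to make scar matrix. BMP2 and BMP6 from sinusoidal endothelial cells set the hepcidin output of hepatocytes.

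Libraries held 28161057 to 33852338 gene reads each. Levels below are reads scaled to a common library size (CPM) after scaling by edgeR's trimmed mean of M-values (TMM). A gene was called changed at a Benjamini-Hochberg adjusted p under 0.05 over all 16456 genes that passed a filter on low counts. Of the 63 members, 52 passed that filter. The scaling matters in the NASH livers. With library totals in place of TMM, the median log2 fold change of all tested genes in NASH vehicle against control moved to 0.62, against -0.01 with TMM, and higher genes then made up 88.2% of the calls in place of 49.6%. On log2(TPM + 1), where TPM is a level corrected for transcript length, the median was 0.51 and the share 92.6%. With 0.1 or 5 added in place of 1, the median was 0.73 or 0.28. The added constant pulls fold changes toward 0, most in genes of low TPM, so sizes on that scale are not comparable with those from edgeR. The same shift was smaller for CDDO-Me against NASH vehicle, where the median was -0.16 with library totals and -0.01 with TMM. The share of higher calls was 36.8% and 56.5% (23% on log2(TPM + 1)). Fold changes below are therefore relative to the median gene.

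Markers of the tissue moved between groups. The summed level of 8 hepatocyte markers, among them Alb and Cps1, was 33590 to 50912 CPM in CDDO-Me livers, 32666 to 53292 CPM in NASH vehicle livers and 81388 to 98349 CPM in control livers, and none was at 0 in any library. The 8 myofibroblast and fibroblast markers summed to 353 to 802 CPM in CDDO-Me livers, 999 to 1569 CPM in NASH vehicle livers and 56.9 to 308 CPM in control livers. The 11 macrophage markers summed to 1063 to 2037 CPM, 2029 to 3789 CPM and 147 to 232 CPM in the same 3 groups. No gene of these 2 lists was at 0 in any library. NASH vehicle 1 had the lowest and CDDO-Me 4 the highest sum of their groups for the myofibroblast and the macrophage list. They also did for 10 stellate cell markers (628 and 747 CPM) and 7 cholangiocyte markers (450 and 865 CPM). For the hepatocyte markers, NASH vehicle 1 was the highest and CDDO-Me 4 the lowest of their groups. Control 3 was the high control for the myofibroblast and macrophage lists, at 308 and 232 CPM. The other controls had 56.9 to 112 CPM and 147 to 169 CPM. For 8 smooth muscle markers, which share Acta2 with the myofibroblast list, control 3 had 473 CPM, against 15.6 to 22 CPM in the other controls. CDDO-Me 4 had 178 CPM for them, against 27 to 63.3 CPM in the other CDDO-Me livers. In bulk RNA, fewer cells of a type and less RNA per cell cannot be told apart.

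In NASH vehicle livers, 30 of the 52 tested members were higher than in control livers, 9 were lower and 13 were not called. Higher members made up 57.7% of those tested, against 29.6% of all tested genes, and lower members 17.3%, against 30.0%. In all, 75.0% of the tested members were called, against 59.7% of all tested genes. Their median log2 fold change was 0.78, against -0.01 over all tested genes. The 4 NASH vehicle libraries did not overlap the 4 control libraries for 36 members, or 69.2%, against 54.4% of all tested genes. NASH vehicle 1 was the lowest library of its group for 23 of the 30 members that were higher.

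CDDO-Me livers differed from NASH vehicle livers in fewer members: 2 were higher, 9 were lower and 41 were not called. Higher members made up 3.85% of those tested, against 9.39% of all tested genes, and lower members 17.3%, against 7.24%. The share called in either direction was 21.2%, against 16.6% of all tested genes. The median log2 fold change was -0.29, against -0.01. Groups did not overlap for 10 members, or 19.2%, against 21.6% of all tested genes, so that share was near the background. The called members were ligands, 1 latent TGF-beta binding protein, and the pair matched by name alone, Bmp1 and Bmp2k. None of the 11 tested receptor genes and none of the 8 SMAD genes was called by edgeR, against 16.6% of all tested genes. Both lists are short, so a count of 0 says little about either. At an unadjusted p under 0.05, edgeR picked 4 of the 11 receptor genes and 0 of the 8 SMAD genes. The share of all tested genes at that threshold was not counted. DESeq2 called 2 receptor genes, Tgfbr1 and Tgfbr2, and 0 SMAD genes, against 1683 genes higher and 1853 lower of all 16456 tested. Smad4 was called lower with library totals (-0.27, adjusted p = 0.035) and on log2(TPM + 1) (-0.33, adjusted p = 0.027), and Acvr2a higher on unique reads (0.31, adjusted p = 0.041).

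Both comparisons use the same 4 NASH vehicle libraries, so their calls are not independent. Of the 30 members higher in NASH vehicle livers, 7 were lower in CDDO-Me livers and 23 were not called. Of the 9 members lower in NASH vehicle livers, 1 (Bmp2) was higher in CDDO-Me livers, 2 (Bmp1 and Bmp7) were lower and 6 were not called. The same splits were not counted over all tested genes, so these counts have no background to be set against. CDDO-Me livers still stood apart from control livers, with 28 members higher (53.8%, against 26.2% of all tested genes) and 11 lower (21.2%, against 23.6%). That is 75.0% of the members called, against 49.8% of all tested genes. CDDO-Me and control libraries did not overlap for 29 members, or 55.8%, against 43.7% of all tested genes. The median was 0.42, against 0.03.

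**Figure D1:**
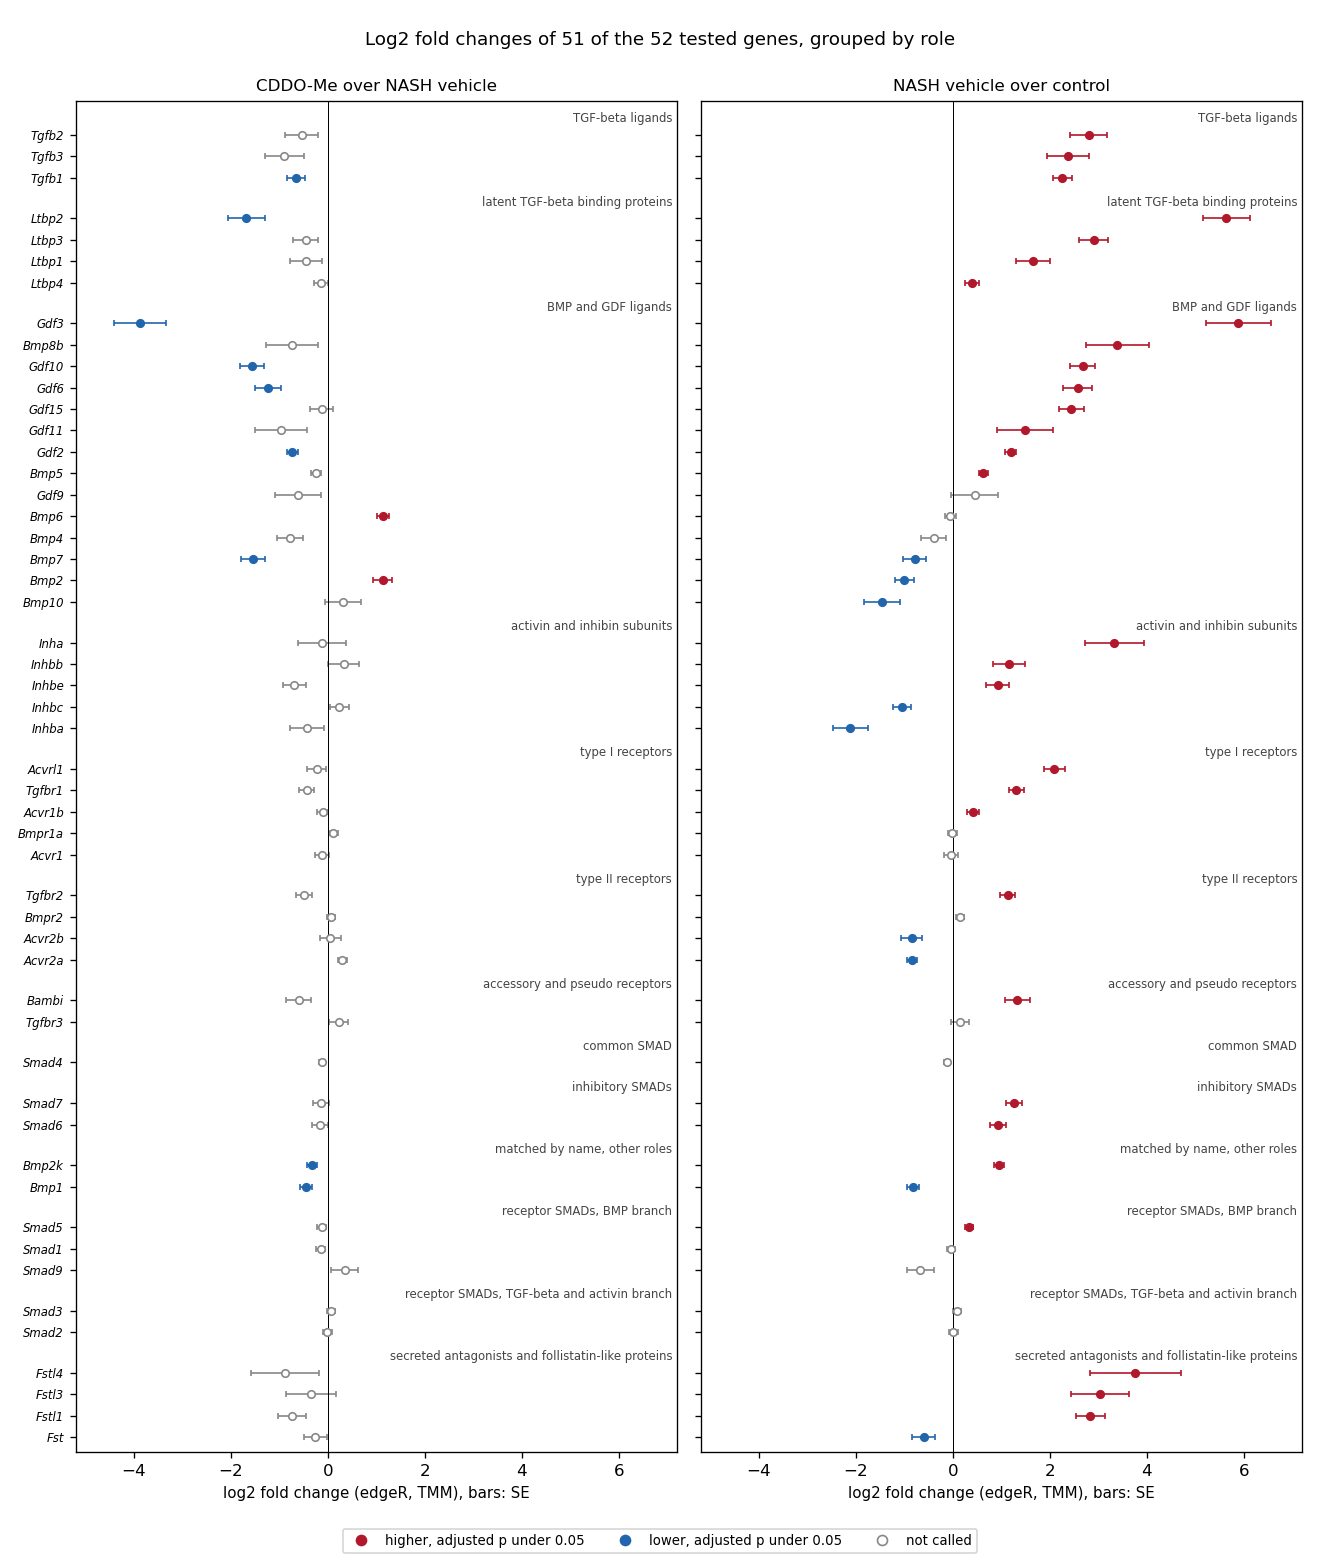
Log2 fold change of 51 of the 52 tested genes (horizontal axis; point, edgeR estimate; bar, SE), grouped by role, for CDDO-Me over NASH vehicle (left) and NASH vehicle over control (right), with 4 libraries per group. Filled points passed an adjusted p of 0.05: 30 genes were higher and 9 lower in NASH vehicle livers, and 2 were higher and 9 lower in CDDO-Me livers, with every receptor and SMAD gene open in the left panel.

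All 3 TGF-beta ligand genes rose in NASH livers. Tgfb1 (chr7:25687002-25705077, plus strand, GRCm38), the main fibrogenic isoform, had 22.2, 20.1, 17.9 and 33.3 CPM in CDDO-Me livers, 28.3, 40.4, 37.7 and 41.6 CPM in NASH vehicle livers, and 6.95, 6.92, 8.47 and 8.63 CPM in control livers. All 8 NASH libraries lay above every control library, and CDDO-Me 4 lay above NASH vehicle 1. The log2 fold change was 2.26 ± 0.19 (SE) for NASH vehicle against control (adjusted p = 6.8e-07) and -0.66 ± 0.18 for CDDO-Me against NASH vehicle (adjusted p = 0.023). The second call was lost without CDDO-Me 1, 2 or 3 or without NASH vehicle 2, 3 or 4, with an adjusted p of up to 0.075.

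Tgfb2 (chr1:186622792-186705989, minus strand) had 6.76, 2.67, 3.17 and 7.97 CPM in CDDO-Me livers, 4.17, 8.44, 8.52 and 8.80 CPM in NASH vehicle livers, and 0.883, 1.25, 0.925 and 1.25 CPM in control livers. Tgfb3 (chr12:86056745-86079041, minus strand) had 8.30, 4.49, 3.94 and 12 CPM, 8.02, 15.1, 15.1 and 15.6 CPM, and 2.19, 1.57, 4.81 and 1.79 CPM in the same order of groups. For both, NASH vehicle 1 lay among the CDDO-Me libraries, and CDDO-Me 1 and 4 were above CDDO-Me 2 and 3. Tgfb2 was 2.80 ± 0.38 and Tgfb3 2.37 ± 0.43 higher on the log2 scale in NASH vehicle livers than in control livers (adjusted p = 3e-05 and 0.00051). Against NASH vehicle, CDDO-Me gave -0.54 ± 0.34 for Tgfb2 and -0.90 ± 0.40 for Tgfb3 (adjusted p = 0.31 and 0.15). Only 52.7% of the Tgfb3 reads were unique, and the gene overlaps Ttll5 on the other strand.

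TGF-beta is secreted in a latent form, tethered to the matrix by latent TGF-beta binding proteins. All 4 of these genes were higher in NASH vehicle livers. Ltbp2 (chr12:84783212-84876532, minus strand), a microfibril protein that does not itself bind latent TGF-beta, had 15.1, 10.8, 9.74 and 26.4 CPM in CDDO-Me livers, 21.6, 54.4, 55.9 and 67.1 CPM in NASH vehicle livers, and 0.768, 1.01, 1.44 and 0.715 CPM in control livers. NASH vehicle 1 was again the low library of its group, and CDDO-Me 4 the high one. Its level was 49.9-fold higher in NASH vehicle livers than in control livers (log2 5.64 ± 0.49, adjusted p = 2.6e-06). In CDDO-Me livers it was lower than in NASH vehicle livers by a log2 fold change of -1.68 ± 0.38 (adjusted p = 0.012), a call that held under each of 19 alternatives.

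Ltbp3, which helps to secrete latent TGF-beta, had 36.8, 23.5, 24.3 and 46.6 CPM in CDDO-Me livers, 26.9, 49.3, 48.3 and 55.5 CPM in NASH vehicle livers and 5.68, 5.12, 8.07 and 5.23 CPM in control livers. Ltbp1, the main tether of latent TGF-beta1, had 13.2, 11.5, 10.1 and 18.1 CPM, 13.3, 18.6, 20.5 and 20 CPM, and 5.22, 2.81, 10.8 and 4.07 CPM in the same groups. For both genes the NASH vehicle libraries overlapped the CDDO-Me libraries and lay above the control libraries. Ltbp3 rose by 2.9 ± 0.29 and Ltbp1 by 1.65 ± 0.35 on the log2 scale in NASH vehicle livers against control livers (adjusted p = 4.9e-06 and 0.0014). CDDO-Me gave -0.46 ± 0.26 and -0.45 ± 0.33 against NASH vehicle (adjusted p = 0.26 and 0.39). Ltbp4, an elastic fibre protein, averaged 87.7 ± 14, 96.6 ± 19 and 73.5 ± 9.77 CPM (SD, n = 4 each) in CDDO-Me, NASH vehicle and control livers, a log2 fold change of 0.39 ± 0.15 in NASH vehicle against control (adjusted p = 0.039) that was called under 14 of 19 alternatives.

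**Figure D2:**
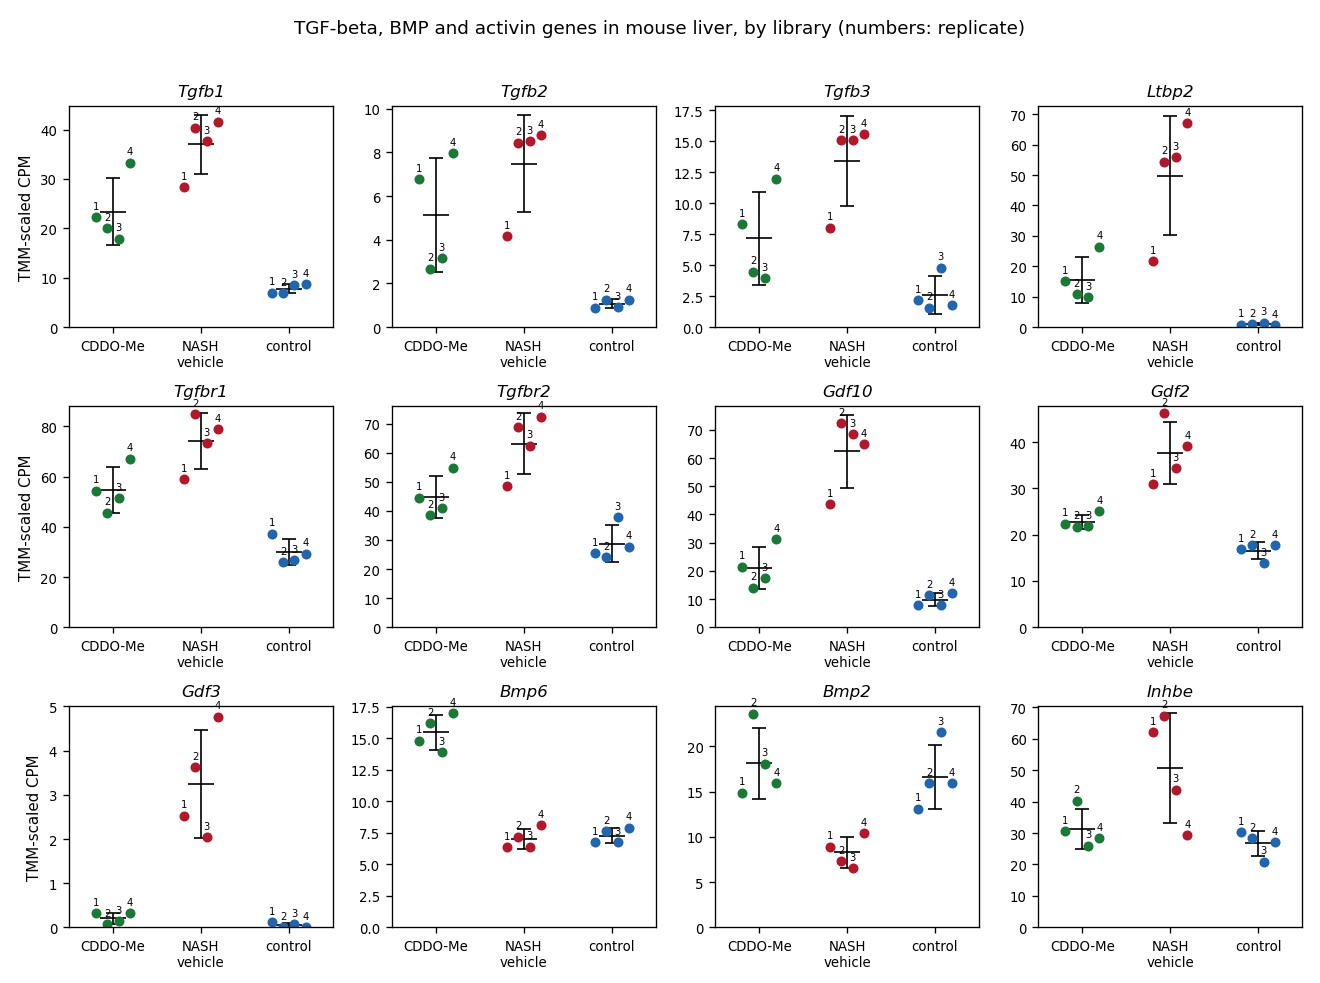
TMM-scaled CPM of 12 genes (vertical axes, from 0) in each library of the CDDO-Me, NASH vehicle and control groups; numbers give the replicate, horizontal lines the mean and bars the SD of 4 libraries. NASH vehicle 1 is the low NASH vehicle library for Tgfb1 (28.3 CPM) and Ltbp2 (21.6 CPM), CDDO-Me 4 is the high CDDO-Me library for both (33.3 and 26.4 CPM), and Bmp6 and Bmp2 separate the CDDO-Me libraries from the NASH vehicle libraries.

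The BMP and GDF ligands moved in both directions: of 14 tested, 8 were higher and 3 lower in NASH vehicle livers, and 2 were higher and 5 lower in CDDO-Me livers than in NASH vehicle livers. That is 57.1% higher and 21.4% lower in the first comparison, against 29.6% and 30.0% of all tested genes, and 14.3% and 35.7% in the second, against 9.39% and 7.24%. Gdf3 (chr6:122605403-122610087, minus strand), a ligand known from the early embryo, had 0.319, 0.0702, 0.146 and 0.315 CPM in CDDO-Me livers, 2.53, 3.63, 2.04 and 4.77 CPM in NASH vehicle livers, and 0.115, 0, 0.074 and 0 CPM in control livers. These are 29, 480 and 5 reads over the 4 libraries of each group. Every NASH vehicle library lay above every library of the other groups. The log2 fold change was 5.89 ± 0.67 for NASH vehicle against control (adjusted p = 7e-06) and -3.87 ± 0.54 for CDDO-Me against NASH vehicle (adjusted p = 0.00043). With 5 reads in control livers, the size of the first value depends on the prior count of the fit.

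Gdf10 (chr14:33923587-33937983, plus strand), also called BMP3B, had 21.5, 14, 17.3 and 31.3 CPM in CDDO-Me livers, 43.7, 72.3, 68.4 and 64.9 CPM in NASH vehicle livers, and 7.87, 11.3, 7.77 and 12.2 CPM in control livers. The 3 groups did not overlap. It rose by 2.68 ± 0.26 on the log2 scale in NASH vehicle livers against control livers (adjusted p = 4.3e-06). In CDDO-Me livers its log2 fold change was -1.56 ± 0.25 against NASH vehicle (adjusted p = 0.0014).

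Gdf2 (chr14:33941039-33947198, plus strand) encodes BMP9, a circulating ligand made by the liver that acts on endothelium through the receptor ALK1. Its levels were 22.4, 21.7, 21.8 and 25.1 CPM in CDDO-Me livers, 30.9, 46.2, 34.4 and 39.1 CPM in NASH vehicle livers, and 16.9, 17.8, 13.8 and 17.7 CPM in control livers. These groups did not overlap either. The log2 fold change was 1.19 ± 0.12 in NASH vehicle against control (adjusted p = 3.5e-06) and -0.73 ± 0.12 in CDDO-Me against NASH vehicle (adjusted p = 0.0014). Gdf6, a ligand of joint and skeletal patterning, had 5.32, 2.91, 2.55 and 6.37 CPM in CDDO-Me livers, 8.41, 10.0, 12 and 10.4 CPM in NASH vehicle livers, and 1.88, 1.61, 1.26 and 2.10 CPM in control livers, again without overlap. It was higher by 2.57 ± 0.29 in NASH vehicle livers against control livers, and its log2 fold change was -1.24 ± 0.27 in CDDO-Me livers against NASH vehicle livers (adjusted p = 6.5e-06 and 0.0074).

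Bmp6 and Bmp2 were the members that rose with CDDO-Me. Bmp6 (chr13:38345107-38500302, plus strand), the endothelial signal of iron stores, had 14.8, 16.2, 13.9 and 17 CPM in CDDO-Me livers, 6.35, 7.2, 6.41 and 8.09 CPM in NASH vehicle livers, and 6.76, 7.61, 6.77 and 7.91 CPM in control livers. The CDDO-Me libraries lay above all 8 others, and the NASH vehicle and control libraries overlapped. The level was 2.21-fold higher in CDDO-Me livers than in NASH vehicle livers (log2 1.14 ± 0.12, adjusted p = 4.4e-05), with alternatives from 0.51 to 1.22 that were all called. Against control, CDDO-Me gave 1.09 ± 0.12 (adjusted p = 8.5e-06). NASH vehicle against control was -0.05 ± 0.12 (adjusted p = 0.74) with TMM, but turned to 0.58 with library totals (adjusted p = 0.004) and 0.60 on log2(TPM + 1) (adjusted p = 0.0015). Bmp6 overlaps 224 bases of Txndc5 on the other strand, a more abundant gene at 182, 166 and 256 CPM on average in CDDO-Me, NASH vehicle and control livers, whose log2 fold change between CDDO-Me and NASH vehicle was 0.14.

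The RefSeq window from 250 bases before to 50 bases after the start of Bmp6 is shown because it holds the core of the antioxidant response element, the sequence that NRF2 binds, and Bmp6 rose with CDDO-Me. It lies at chr13:38345466-38345765 on the plus strand (GRCm38.p6), and the capitals mark the single match to TGACNNNGC. The window falls inside the gene as counted, which begins at 38345107, so the RefSeq start and the counted start differ.
Bmp6: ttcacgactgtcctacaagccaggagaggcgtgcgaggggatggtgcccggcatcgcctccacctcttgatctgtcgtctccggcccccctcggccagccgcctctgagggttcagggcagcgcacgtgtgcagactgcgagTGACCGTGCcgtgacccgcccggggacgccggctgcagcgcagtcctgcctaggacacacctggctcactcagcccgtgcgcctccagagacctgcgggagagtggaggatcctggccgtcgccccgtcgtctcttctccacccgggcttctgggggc
On either strand that motif was in 4071 of 32851 windows of this length, or 12.4%. Windows were found for 45 of the 63 members, 57 windows in all, so shares of windows and counts of members are unlike measures. The 6 members with a match were Bmp6, Gdf1, Ltbp4, Smad6, Tgfbr1 and Tgfbr2. Apart from Bmp6, none of these was called higher in CDDO-Me livers than in NASH vehicle livers, and Gdf1 was below the filter. Bmp2, the only other member called higher, had no window. No further match could therefore have been a gene called higher, and the motif cannot be set against the higher calls here. Gdf10 and Bmp2k, both called lower, had a window and no match. A match is a description of the letters, not evidence of binding.

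Bmp2 (chr2:133552159-133562885, plus strand), the other BMP that controls hepcidin, had 14.9, 23.6, 18.1 and 15.9 CPM in CDDO-Me livers, 8.91, 7.34, 6.53 and 10.4 CPM in NASH vehicle livers, and 13.1, 15.9, 21.6 and 15.9 CPM in control livers. The NASH vehicle libraries lay below all 8 others, and CDDO-Me and control libraries overlapped. The log2 fold change was 1.13 ± 0.19 for CDDO-Me against NASH vehicle (adjusted p = 0.0015), called under each of 19 alternatives. For NASH vehicle against control it was -1.0 ± 0.19 (adjusted p = 0.00049) with TMM, but it was not called with library totals (-0.39, adjusted p = 0.084) or on log2(TPM + 1) (-0.15, adjusted p = 0.46). The 8 sinusoidal endothelial markers summed to 198 to 292 CPM in CDDO-Me livers, 133 to 191 CPM in NASH vehicle livers and 232 to 255 CPM in control livers, and 6 general endothelial markers to 73.7 to 106 CPM, 37.9 to 67.8 CPM and 81.8 to 105 CPM. In CDDO-Me against NASH vehicle, 4 of the 8 and 4 of the 6 were called higher, and in NASH vehicle against control 4 of the 8 and 5 of the 6 were called lower. The part of these cells in the values of Bmp2 and Bmp6 was not tested.

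Bmp7, a ligand known to oppose TGF-beta in kidney, had 0.426, 0.737, 0.584 and 0.659 CPM in CDDO-Me livers, 1.34, 1.84, 1.89 and 1.99 CPM in NASH vehicle livers, and 3.19, 3.51, 2.74 and 2.77 CPM in control livers. The 3 groups did not overlap, with CDDO-Me the lowest. Its log2 fold change was -1.55 ± 0.25 in CDDO-Me against NASH vehicle (adjusted p = 0.0012) and -0.79 ± 0.24 in NASH vehicle against control (adjusted p = 0.011), the second being -0.14 with library totals.

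Among the other ligands, Gdf15, a stress hormone that acts on the hindbrain receptor GFRAL, had 20.1, 35.2, 42.3 and 32.4 CPM in CDDO-Me livers, 35.2, 31.2, 37.9 and 38.1 CPM in NASH vehicle livers, and 4.80, 9.45, 7.51 and 4.43 CPM in control livers. Both NASH groups lay above the controls and overlapped each other. It rose by 2.44 ± 0.26 on the log2 scale in NASH vehicle livers (adjusted p = 6.9e-06), and CDDO-Me against NASH vehicle was -0.13 ± 0.24 (adjusted p = 0.75). Bmp5 averaged 14.8 ± 1.79, 17.5 ± 1.06 and 11.3 ± 0.618 CPM (SD, n = 4 each) in CDDO-Me, NASH vehicle and control livers, and rose by 0.63 ± 0.10 in NASH vehicle against control (adjusted p = 0.00014).

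Some ligand genes were near the detection floor. Bmp8b had 0.638, 0.948, 0.109 and 1.72 CPM in CDDO-Me livers, 1.37, 1.24, 2.01 and 1.11 CPM in NASH vehicle livers, and 0.115, 0.0922, 0.185 and 0.134 CPM in control livers. Gdf11 had 0.399, 0.211, 0.146 and 0.774 CPM, 0.566, 0.907, 0.614 and 0.954 CPM, and 0.154, 0.0922, 0.296 and 0.537 CPM in the same groups. Both were higher in NASH vehicle livers than in control livers (3.39 ± 0.65 and 1.49 ± 0.58 on the log2 scale, adjusted p = 0.00049 and 0.039), and the Gdf11 call held under 12 of 19 alternatives. Bmp10, a ligand of ALK1 known from the heart, had 0.638, 1.58, 1.28 and 0.918 CPM in CDDO-Me livers, 1.34, 0.55, 0.908 and 0.742 CPM in NASH vehicle livers, and 1.81, 1.84, 2.70 and 3.44 CPM in control livers. Its log2 fold change was -1.47 ± 0.37 in NASH vehicle against control (adjusted p = 0.0035) and -0.26 on log2(TPM + 1) (adjusted p = 0.15). Bmp4 averaged 2.15 ± 0.571, 3.71 ± 0.363 and 4.91 ± 1.99 CPM in CDDO-Me, NASH vehicle and control livers, and Gdf9, an oocyte factor, 0.565 ± 0.213, 0.861 ± 0.281 and 0.637 ± 0.339 CPM (SD, n = 4 each). By edgeR, neither was called between NASH vehicle and control or between CDDO-Me and NASH vehicle. For Bmp4, whose CDDO-Me libraries did not overlap the NASH vehicle libraries, CDDO-Me against NASH vehicle was -0.78 ± 0.27 (adjusted p = 0.064) and was called under 6 of 19 alternatives, among them DESeq2 (-0.81, adjusted p = 0.021). Gdf9 was called higher in NASH vehicle against control on log2(TPM + 1) (0.58, adjusted p = 0.011).

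Activin and inhibin subunits split between higher and lower genes, 3 against 2, in NASH vehicle livers. Those are 60% and 40% of the 5 tested, against 29.6% and 30.0% of all tested genes. Inhbe (chr10:127348857-127354411, minus strand), which encodes the activin E subunit secreted by hepatocytes, had 30.5, 40.3, 26.0 and 28.4 CPM in CDDO-Me livers, 62.0, 67.3, 43.8 and 29.3 CPM in NASH vehicle livers, and 30.3, 28.3, 20.9 and 27.2 CPM in control livers. NASH vehicle 4 lay within the range of the other groups, and the other 3 lay above both. It rose by 0.92 ± 0.23 on the log2 scale in NASH vehicle livers against control livers (adjusted p = 0.0046). For CDDO-Me against NASH vehicle the value was -0.69 ± 0.23 (adjusted p = 0.062), which passed the threshold under 8 of 19 alternatives, among them DESeq2 and unique reads.

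The window of Inhbe is shown because it holds a composite element of ATF4 and C/EBP factors, the binding sequence of the integrated stress response. It lies at chr10:127351799-127352098 on the minus strand (GRCm38.p6), and the capitals mark the match, which reads TGATGNAA on the opposite strand. The window falls inside the gene as counted, which begins at 127354411 on this strand, so the RefSeq start and the counted start differ.
Inhbe: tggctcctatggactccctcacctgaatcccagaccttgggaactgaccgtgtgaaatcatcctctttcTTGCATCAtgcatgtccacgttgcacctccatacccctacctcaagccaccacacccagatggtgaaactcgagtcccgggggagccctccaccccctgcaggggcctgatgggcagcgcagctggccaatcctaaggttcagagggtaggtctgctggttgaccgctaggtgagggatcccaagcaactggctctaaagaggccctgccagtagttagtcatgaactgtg
The motif was in 1304 of the 32851 windows on either strand, or 3.97%, and among members also in that of Bmp5.

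Inhbc (chr10:127356322-127370431, minus strand), the activin C subunit of hepatocytes, had 40.5, 50.1, 42.2 and 30.1 CPM in CDDO-Me livers, 42.2, 34.2, 31.9 and 29.6 CPM in NASH vehicle livers, and 83.8, 81.3, 47.5 and 72.2 CPM in control livers. Inhba, the activin A subunit, had 5.67, 2.91, 3.72 and 4.87 CPM, 5.81, 5.0, 7.34 and 5.12 CPM, and 46.7, 23.8, 12.8 and 17.9 CPM in the same groups. Every NASH vehicle library lay below every control library for both. The log2 fold changes in NASH vehicle against control were -1.05 ± 0.19 for Inhbc and -2.12 ± 0.36 for Inhba (adjusted p = 0.0004 and 0.00029). Inhba was the single member still called lower on log2(TPM + 1). Unique reads made up 9.8% of the reads of Inhbe, 15.3% of those of Inhbc and 18.8% of those of Inhba. Inhbe and Inhbc both overlap Gm47200 on the other strand, a gene at 2.56 to 4.58 CPM on average by group. On unique reads alone the NASH vehicle against control values were 1.17 ± 0.26, -1.01 ± 0.24 and -1.96 ± 0.55 for Inhbe, Inhbc and Inhba, all still called.

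Inhbb, the activin B subunit, had 4.79, 6.67, 5.80 and 8.34 CPM in CDDO-Me livers, 6.20, 4.97, 3.88 and 5.33 CPM in NASH vehicle livers, and 1.19, 1.29, 2.89 and 3.76 CPM in control livers. Inha, the inhibin alpha subunit, had 1.94, 0.737, 1.09 and 1.72 CPM, 0.716, 2.17, 1.72 and 1.41 CPM, and 0.23, 0.184, 0 and 0.179 CPM in the same groups. Both NASH groups lay above the controls for these genes. Inhbb rose by 1.16 ± 0.33 and Inha by 3.33 ± 0.61 on the log2 scale in NASH vehicle livers against control livers (adjusted p = 0.0083 and 0.00038). Intron reads made up 60.8% of the Inha reads. No activin or inhibin subunit was called by edgeR in CDDO-Me against NASH vehicle, against 16.6% of all tested genes. With 5 genes, a count of 0 says little. An unadjusted p under 0.05 was found for 1 of the 5, a share not counted over all tested genes. DESeq2 called 1, Inhbe, against 1683 genes higher and 1853 lower of all 16456 tested.

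Per unit length, in TPM, Inhbc was the most abundant ligand gene in all groups, at 54.6 ± 6.80 TPM in CDDO-Me livers, 53.4 ± 5.59 TPM in NASH vehicle livers and 62.7 ± 11.1 TPM in control livers (SD, n = 4 each). In NASH vehicle livers Gdf15 stood beside it at 53.2 ± 9.12 TPM, within its spread. Gdf2 at 38.9 ± 6.69 TPM and Gdf10 at 37.5 ± 9.62 TPM came next and did not differ beyond their spread, followed by Inhbe at 29.4 ± 8.69 TPM and Tgfb1 at 22 ± 4.69 TPM. Unique reads were 15.3% of the Inhbc reads and 9.8% of the Inhbe reads, against 100% for Gdf15, Gdf2, Gdf10 and Tgfb1. The ranks of Inhbc and Inhbe may therefore depend on how the other reads were assigned. Gdf10 averaged 11.2 ± 5.41 TPM in CDDO-Me livers and 3.24 ± 0.758 TPM in control livers, and Tgfb1 12 ± 4.78 TPM and 2.60 ± 0.512 TPM. Bmp2 and Bmp6 were at 13.1 ± 2.14 and 9.58 ± 1.84 TPM in CDDO-Me livers, 7.04 ± 1.40 and 5.21 ± 0.661 TPM in NASH vehicle livers, and 8.05 ± 2.39 and 3.09 ± 0.273 TPM in control livers.

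**Figure D3:**
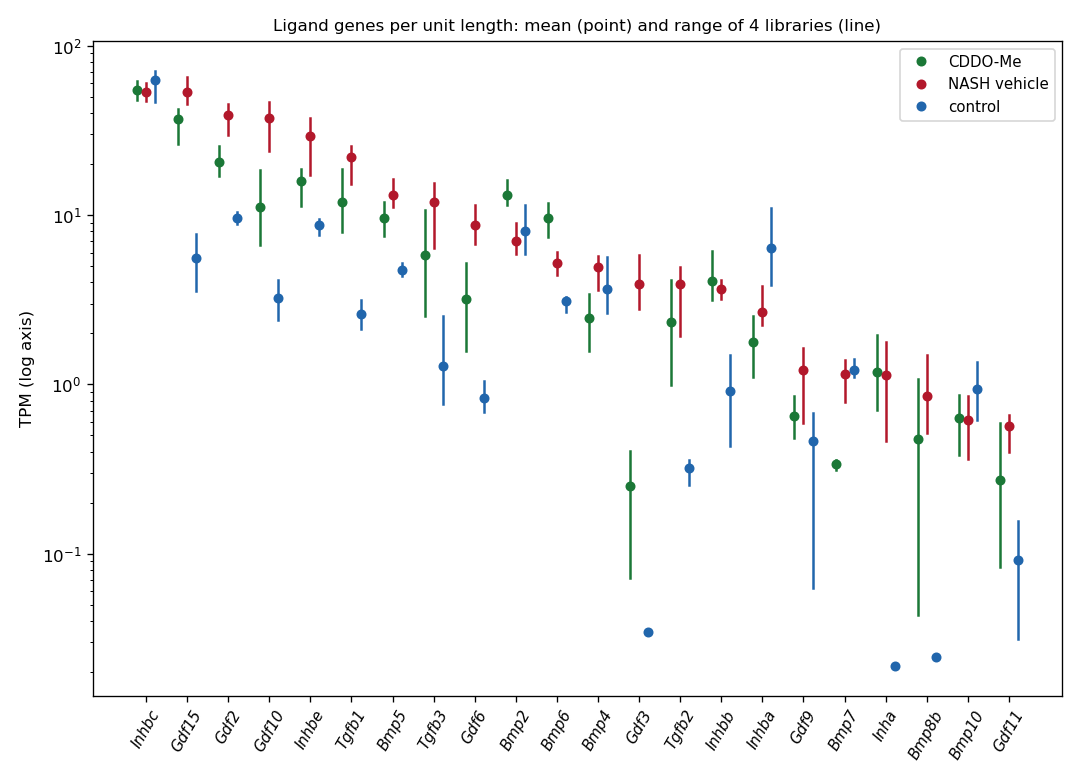
TPM (vertical, log axis) of the ligand genes that averaged at least 0.5 TPM in NASH vehicle livers, in CDDO-Me, NASH vehicle and control livers from left to right within each gene; points are means and lines the range of 4 libraries, with no line where a library is listed at 0. Inhbc is near 54.6 to 62.7 TPM in CDDO-Me and control livers, from reads of which 15.3% were unique. The CDDO-Me point lies between the other groups for Gdf15, Gdf2, Gdf10 and Tgfb1 and above both for Bmp2 and Bmp6.

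Of the 11 tested receptor genes, 5 were higher and 2 lower in NASH vehicle livers than in control livers. That is 45.5% higher and 18.2% lower, against 29.6% and 30.0% of all tested genes. The share called, 63.6%, was near the 59.7% of all tested genes. Tgfbr1 (chr4:47353222-47414931, plus strand), the type I receptor ALK5, had 54.4, 45.7, 51.4 and 67.1 CPM in CDDO-Me livers, 58.9, 84.9, 73.2 and 79.0 CPM in NASH vehicle livers, and 37.3, 25.9, 26.8 and 29.3 CPM in control livers. Tgfbr2 (chr9:116084293-116175360, minus strand), its type II partner, had 44.5, 38.5, 41.0 and 54.9 CPM, 48.6, 68.8, 62.4 and 72.4 CPM, and 25.5, 24, 37.8 and 27.7 CPM in the same groups. In both, the 8 NASH libraries lay above the controls, and CDDO-Me 4 lay above NASH vehicle 1. Tgfbr1 rose by 1.31 ± 0.15 and Tgfbr2 by 1.13 ± 0.16 on the log2 scale in NASH vehicle livers against control livers (adjusted p = 6.8e-06 and 5.7e-05). CDDO-Me against NASH vehicle gave -0.44 ± 0.15 and -0.49 ± 0.16 (adjusted p = 0.055 and 0.051). Each passed the threshold when CDDO-Me 4 or NASH vehicle 1 was left out.

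Acvrl1, which encodes ALK1, the endothelial receptor of BMP9 and BMP10, had 11.1, 9.69, 9.52 and 13.9 CPM in CDDO-Me livers, 10.4, 12.1, 13.3 and 16.1 CPM in NASH vehicle livers, and 3.26, 2.08, 4.18 and 2.64 CPM in control livers. The NASH groups overlapped each other and lay above the controls, with a log2 fold change of 2.09 ± 0.22 in NASH vehicle against control (adjusted p = 3.1e-06). Bambi, a pseudoreceptor that blocks TGF-beta and BMP signalling, had 7.55, 6.70, 6.68 and 11.8 CPM in CDDO-Me livers, 8.32, 17.3, 10.6 and 13.6 CPM in NASH vehicle livers, and 6.99, 4.61, 4.18 and 4.02 CPM in control livers. It rose by 1.33 ± 0.26 in NASH vehicle against control (adjusted p = 0.00069), and CDDO-Me against NASH vehicle was -0.60 ± 0.26 (adjusted p = 0.13). Acvr1b, the activin receptor ALK4, averaged 17.3 ± 1.95, 18.7 ± 0.889 and 14 ± 2.29 CPM (SD, n = 4 each) in CDDO-Me, NASH vehicle and control livers, and rose by 0.41 ± 0.12 in NASH vehicle against control (adjusted p = 0.0081).

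The activin type II receptors were lower in NASH vehicle livers with TMM scaling. Acvr2a had 18.8, 23.1, 21.7 and 21 CPM in CDDO-Me livers, 17.1, 19.4, 17.4 and 14.5 CPM in NASH vehicle livers, and 28.7, 32.2, 29.0 and 33.3 CPM in control livers. Controls lay above both NASH groups, which overlapped. Its log2 fold change was -0.85 ± 0.10 in NASH vehicle against control (adjusted p = 1.1e-05) but -0.22 with library totals and -0.07 on log2(TPM + 1), neither called. CDDO-Me against NASH vehicle gave 0.30 ± 0.10 (adjusted p = 0.055). Acvr2b averaged 2.25 ± 0.296, 2.17 ± 0.546 and 3.92 ± 0.401 CPM (SD, n = 4 each) in CDDO-Me, NASH vehicle and control livers, with -0.85 ± 0.22 in NASH vehicle against control (adjusted p = 0.0039) and 0.02 on log2(TPM + 1).

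The other receptor genes were not called between NASH vehicle and control with TMM. Bmpr2, the BMP type II receptor, had 37.1, 39.2, 38.5 and 42.0 CPM in CDDO-Me livers, 34.8, 40.6, 34.1 and 39.9 CPM in NASH vehicle livers, and 35.1, 34.9, 31.5 and 33.1 CPM in control livers, with 0.15 ± 0.08 for NASH vehicle against control (adjusted p = 0.12). Bmpr1a (ALK3), which hepatocytes need for hepcidin, averaged 38.3 ± 1.66, 35.4 ± 2.84 and 35.7 ± 3.48 CPM in CDDO-Me, NASH vehicle and control livers (SD, n = 4 each). In the same groups, Acvr1 (ALK2) averaged 16.5 ± 2.71, 17.9 ± 0.878 and 18.4 ± 3.92 CPM, and Tgfbr3 (betaglycan) 14.9 ± 2.76, 12.8 ± 1.66 and 11.5 ± 3.46 CPM. With library totals each of these 4 genes was called higher in NASH vehicle livers.

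Of the SMAD genes, the inhibitory pair and Smad5 rose in NASH livers. They make up 37.5% of the 8 SMAD genes, against 29.6% of all tested genes called higher. The share called in either direction was also 37.5%, below the 59.7% of all tested genes. Smad7, which marks TGF-beta receptors for degradation, had 26.4, 22.6, 22.5 and 26.7 CPM in CDDO-Me livers, 23.6, 29.0, 29.5 and 25.8 CPM in NASH vehicle livers, and 10.6, 7.75, 10.7 and 15.9 CPM in control livers. The NASH groups overlapped and both lay above the controls. It rose by 1.26 ± 0.17 on the log2 scale in NASH vehicle against control (adjusted p = 2.9e-05), and CDDO-Me against NASH vehicle was -0.14 ± 0.16 (adjusted p = 0.63). Smad6 (chr9:63953076-64022059, minus strand), the inhibitor of the BMP branch, averaged 20.3 ± 3.02, 22.7 ± 5.30 and 11.9 ± 1.19 CPM (SD, n = 4 each) in CDDO-Me, NASH vehicle and control livers, and rose by 0.93 ± 0.16 (adjusted p = 0.00025). Smad5 averaged 34.8 ± 2.45, 38.3 ± 3.15 and 30.5 ± 3.24 CPM and rose by 0.33 ± 0.09 (adjusted p = 0.0072).

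The window of Smad6 is shown because, alone among the 45 members with a window, it holds the palindromic SMAD-binding element GTCTAGAC. That element was in 70 of 32851 windows, or 0.213%. Smad7, Smad2 and Smad4 had no window and were not searched. The window of Smad6 was read as follows. It lies at chr9:64022010-64022309 on the minus strand (GRCm38.p6), and the capitals mark the element, which reads the same on both strands.
Smad6: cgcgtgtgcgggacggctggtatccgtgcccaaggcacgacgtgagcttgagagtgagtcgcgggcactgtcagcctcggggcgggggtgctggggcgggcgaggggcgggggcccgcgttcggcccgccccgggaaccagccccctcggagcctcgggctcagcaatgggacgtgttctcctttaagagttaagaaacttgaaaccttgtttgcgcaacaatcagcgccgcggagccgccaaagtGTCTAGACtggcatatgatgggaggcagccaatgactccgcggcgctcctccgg
A GC-rich SMAD element, GGCGCC, was in 3898 of the windows (11.9%) and in those of 11 members, Smad5 and Gdf10 among them. The motifs were picked with the members' values known.

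By edgeR with TMM, none of the other SMADs, which carry the signal, was called in CDDO-Me against NASH vehicle or in NASH vehicle against control. Smad3 had 24, 26.5, 26.8 and 29.9 CPM in CDDO-Me livers, 24.1, 24.2, 27.5 and 26.7 CPM in NASH vehicle livers, and 23.4, 23.9, 23.6 and 25.4 CPM in control livers. All 3 groups overlapped, with 0.06 ± 0.08 for CDDO-Me against NASH vehicle and 0.09 ± 0.08 for NASH vehicle against control (adjusted p = 0.65 and 0.36). Smad2 averaged 18.5 ± 2.01, 18.7 ± 0.986 and 18.5 ± 1.28 CPM, and Smad1 18.4 ± 2.08, 20.4 ± 1.36 and 21 ± 1.22 CPM in CDDO-Me, NASH vehicle and control livers. Smad4 averaged 34.1 ± 1.46, 36.9 ± 2.19 and 40.1 ± 1.47 CPM, and Smad9 10.6 ± 2.32, 8.32 ± 3.32 and 13.2 ± 4.58 CPM in the same groups (SD, n = 4 each). DESeq2 called Smad9 lower in NASH vehicle against control (-0.63, adjusted p = 0.049), as did edgeR without control 1 (-0.79) or NASH vehicle 1 (-0.98), against -0.67 ± 0.28 with all libraries (adjusted p = 0.057). Smad4 was called lower in CDDO-Me against control with TMM (-0.23, adjusted p = 0.013) but higher with library totals (0.24, adjusted p = 0.022) and on log2(TPM + 1) (0.32, adjusted p = 0.011). With library totals, Smad1, Smad2, Smad3 and Smad4 were all called higher in NASH vehicle livers than in control livers.

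Of 5 tested antagonist and follistatin-like genes, 3 rose in NASH livers. That is 60%, against 29.6% of all tested genes, and 1 was lower (20%, against 30.0%). Fstl1, a secreted glycoprotein of mesenchymal cells, had 49.4, 32.5, 29.7 and 57.5 CPM in CDDO-Me livers, 44.5, 79.9, 71.5 and 86.4 CPM in NASH vehicle livers, and 11.2, 5.90, 13.3 and 9.21 CPM in control livers. NASH vehicle 1 and CDDO-Me 4 again overlapped. Fstl1 rose by 2.83 ± 0.30 on the log2 scale in NASH vehicle against control (adjusted p = 1e-05), and CDDO-Me against NASH vehicle was -0.74 ± 0.28 (adjusted p = 0.093). Fstl3, which binds activins and myostatin, had 3.83, 1.86, 1.90 and 5.36 CPM in CDDO-Me livers, 2.24, 5.74, 2.70 and 5.89 CPM in NASH vehicle livers, and 0.307, 0.0922, 1.11 and 0.447 CPM in control livers. It rose by 3.04 ± 0.60 in NASH vehicle against control (adjusted p = 0.00078), from reads that were 53.3% unique. Fstl4 had 0.638, 0, 0.474 and 0.487 CPM in CDDO-Me livers, 0.239, 0.934, 0.859 and 0.981 CPM in NASH vehicle livers, and 0.0768, 0.0922, 0 and 0.0447 CPM in control livers, where it had 5 reads in all. It was called higher in NASH vehicle livers (3.76 ± 0.94, adjusted p = 0.0034), and 58.4% of its reads were intronic.

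Fst, the activin-binding protein follistatin, averaged 6.33 ± 2.34, 7.59 ± 1.04 and 11.5 ± 2.88 CPM in CDDO-Me, NASH vehicle and control livers (SD, n = 4 each). Its log2 fold change of -0.60 ± 0.24 in NASH vehicle against control (adjusted p = 0.043) was called under 8 of 19 alternatives and was 0.02 with library totals.

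Bmp1 and Bmp2k carry BMP names but other roles. Bmp1, the protease that trims procollagens, had 62.2, 66.9, 64.5 and 57.0 CPM in CDDO-Me livers, 110, 71.2, 81.5 and 79.2 CPM in NASH vehicle livers, and 140, 150, 152 and 160 CPM in control livers. The 3 groups did not overlap, with -0.45 ± 0.12 for CDDO-Me against NASH vehicle (adjusted p = 0.021) and -0.82 ± 0.12 for NASH vehicle against control (adjusted p = 6.2e-05). On log2(TPM + 1), the second value was -0.01, and the first was lost without CDDO-Me 1 or 3. Bmp2k, a BMP2-inducible kinase, had 12.6, 12.1, 12.8 and 14.7 CPM in CDDO-Me livers, 15.3, 16.4, 16.8 and 16.8 CPM in NASH vehicle livers, and 8.91, 8.58, 8.77 and 7.65 CPM in control livers. Its value of -0.32 ± 0.10 in CDDO-Me against NASH vehicle (adjusted p = 0.034) turned to 0.04 ± 0.18 on unique reads (adjusted p = 0.9), which were 35.6% of its reads. Bmp2k overlaps 9539 bases of Paqr3 on the other strand. In NASH vehicle against control it was 0.95 ± 0.10 higher on the log2 scale (adjusted p = 3.1e-06).

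The 11 members below the filter on low counts had 0 to 92 reads over all 12 libraries. Fstl5 had 92, all of them intronic, Bmp3 had 62, Grem1 47, Bmpr1b 44, Acvr1c 39, Gdf7 22, Bmp8a 21, Gdf1 12, Bmp15 2 and Nog 2. Gdf5 had 0 reads, which allows up to 3 over the set.

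**Figure D4:**
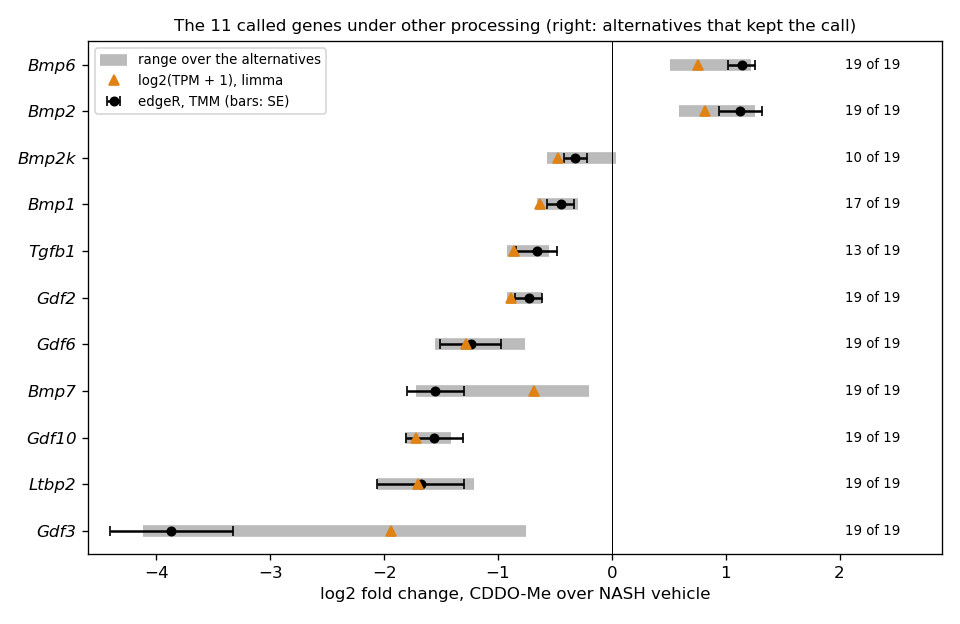
The 11 genes called in CDDO-Me against NASH vehicle: log2 fold change with TMM and edgeR (point; bar, SE), on log2(TPM + 1) with limma (triangle), and the range over 19 alternative settings (grey). Numbers at the right count the alternatives that kept the call: all 19 for 8 genes, 17 for Bmp1, 13 for Tgfb1 and 10 for Bmp2k, whose range crosses 0. The added 1 pulls the triangles of genes of low TPM, such as Gdf3, toward 0.

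Genes around the pathway were read from lists of known functions. Of 13 tested genes for latent TGF-beta activation and co-receptors, 9 were higher and 1 lower in NASH vehicle livers than in control livers (median log2 1.19, against -0.01 over all tested genes), and 0 were higher and 5 lower in CDDO-Me livers than in NASH vehicle livers (median -0.63, against -0.01). The shares called were 76.9%, against 59.7% of all tested genes, and 38.5%, against 16.6%. Nrros, which holds latent TGF-beta on macrophages, averaged 14.5 ± 2.12, 26.5 ± 3.08 and 7.51 ± 0.830 CPM in CDDO-Me, NASH vehicle and control livers, with -0.87 ± 0.13 for CDDO-Me against NASH vehicle (adjusted p = 0.00052). The integrin subunits Itgav and Itgb5, which can release TGF-beta from its latent complex, were at -0.78 ± 0.14 and -0.63 ± 0.12 in the same comparison (adjusted p = 0.0021 and 0.0025).

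Of 19 TGF-beta target and feedback genes, 11 were higher and 1 lower in NASH vehicle livers (median 1.70), and 0 were higher and 5 lower in CDDO-Me livers against NASH vehicle livers (median -0.51). The share called in the first comparison, 63.2%, was near the 59.7% of all tested genes, with 57.9% higher against 29.6%, and in the second 26.3% were lower against 7.24%. Tgfbi, named for its induction by TGF-beta, averaged 89.5 ± 17.3, 156 ± 22 and 36.2 ± 1.54 CPM (SD, n = 4 each) in CDDO-Me, NASH vehicle and control livers. It rose by 2.11 ± 0.14 in NASH vehicle against control (adjusted p = 8.6e-08) and was at -0.80 ± 0.13 in CDDO-Me against NASH vehicle (adjusted p = 0.0013). Skil, a repressor of SMAD signalling, was at -0.51 ± 0.11 and the collagen gene Col3a1 at -1.36 ± 0.31 in the second comparison (adjusted p = 0.0076 and 0.012). Of the myofibroblast and macrophage markers, 6 of 8 and 11 of 11 were called higher in NASH vehicle against control, and 4 of 8 and 9 of 11 lower in CDDO-Me against NASH vehicle. Col1a1 and Col3a1, at 444 and 737 CPM on average in NASH vehicle livers, stand in both the target list and the myofibroblast list, so part of that shared movement is fixed by the lists. The part of these cells in the 2 pathway lists was not tested.

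Of 14 BMP target, co-receptor and hepcidin control genes, 3 were higher and 4 lower in NASH vehicle livers (median -0.10), and 4 were higher and 0 lower in CDDO-Me livers than in NASH vehicle livers (median 0.06). The shares called were 50%, below the 59.7% of all tested genes, and 28.6%, against 16.6%. Id1, a direct target of BMP SMADs, averaged 20.7 ± 3.57, 19.4 ± 6.54 and 4.29 ± 1.04 CPM in CDDO-Me, NASH vehicle and control livers, rising by 2.18 ± 0.24 in NASH vehicle against control (adjusted p = 7.3e-06) and at 0.09 ± 0.22 in CDDO-Me against NASH vehicle (adjusted p = 0.82). Hamp, the hepcidin gene, averaged 164 ± 79.1, 161 ± 36.2 and 527 ± 190 CPM in the same groups, with 0.02 ± 0.35 for CDDO-Me against NASH vehicle (adjusted p = 0.98). Its paralog Hamp2 averaged 15.1 ± 10.3, 2.45 ± 0.325 and 23.3 ± 3.49 CPM and was 2.63 ± 0.43 higher on the log2 scale in CDDO-Me livers than in NASH vehicle livers (adjusted p = 0.0019); reads shared between Hamp and Hamp2 could be split by the counting. Hfe2 (hemojuvelin, a BMP co-receptor), Hfe and Id4 were the other 3 higher genes, at 0.42 ± 0.12, 0.44 ± 0.11 and 0.85 ± 0.26.

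Of 10 tested extracellular antagonists outside the member list, 4 were higher and 2 lower in NASH vehicle livers (median 0.26), and 1 was higher and 2 lower in CDDO-Me livers against NASH vehicle livers (median -0.07). The shares called were 60%, near the 59.7% of all tested genes, and 30.0%, against 16.6%. The higher gene was Crim1, a membrane protein that binds BMPs, at 0.45 ± 0.14 (adjusted p = 0.039). The lower genes were Smoc2 at -1.52 ± 0.35 and the protease Htra1 at -1.07 ± 0.24 (adjusted p = 0.014 and 0.011).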

How the data were processed

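RNA of 12 liver samples was sequenced as poly(A) libraries with 75 bp paired-end reads, per the labels' protocols. Each deposited table lists 41325 genes with whole-number counts of reads per gene (total, unique, exon and intron), and the authors' TPM and RPKM. Per the file headers, the tables also hold a fraction of reads that are unique, and one that are intronic, for each gene. RPKM was not used here. The submitters' processing notes name the build GRCm38. For the aligner, counter, strand setting, the meaning of unique and whether a pair counts as 1 or 2, nothing is given in the sources used here, so antisense and near-identical genes may share reads.

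Total gene reads of all 12 libraries were fitted in edgeR 4.0.16 (R 4.3.3) with filterByExpr (minimum count 10, minimum total 15), TMM scaling and a two-sided quasi-likelihood test, adjusted by Benjamini-Hochberg over 16456 genes at 0.05. The script was tested on simulated data. Alternatives used DESeq2 1.42.0, limma 3.58.1 on log2(TPM + 1) (pseudocounts 0.1 and 5 also), DESeq2 size factors, library totals, no filter, unique or exon reads, 8 libraries, a replicate block, and each library left out. Counts limit the precision of low genes. TPM compares levels between genes.

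Members and lists were chosen with earlier results of these data known, so no list was tested as a set. Results of 1 tested member are not reported here singly, though counts over the members include it. Values in every library are given for members called with an absolute log2 fold change of at least 1 in NASH vehicle against control, for members called in CDDO-Me against NASH vehicle, and for Tgfb1, Tgfbr1, Tgfbr2, Smad3, Smad7, Bmp6, Bmpr2, Acvr2a, Inhbe and Gdf15. Promoter windows came from RefSeq (GRCm38.p6).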

Additional observations from a re-analysis of the deposited data

Results flagged for a closer look

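Among 153 sets of 4 libraries (51 members in 3 groups), 7 held 1 library that stood apart by Dixon's gap criterion at the 95% level, and about 1 in 20 such sets does so by chance. In NASH vehicle livers, replicate 1 was apart for 4 members. It was low for Tgfb2 at 4.17 CPM (8.44 to 8.8 in the others), Tgfb3 at 8.02 CPM (15.1 to 15.6), Tgfbr3 at 10.3 CPM (13.4 to 14) and Fstl4 at 0.239 CPM (0.859 to 0.981). CDDO-Me 4 was high for Bambi at 11.8 CPM (6.68 to 7.55 in the others) and Tgfbr3 at 19 CPM (13.4 to 13.8). Control 1 was high for Bmp4 at 7.87 CPM (3.55 to 4.14 in the others). The same NASH vehicle and CDDO-Me libraries had the lowest and highest sums of myofibroblast markers in their groups, 999 and 802 CPM, and of macrophage markers, 2029 and 2037 CPM. These extremes were not particular to those 2 lists. Stellate cell markers (628 and 747 CPM) and cholangiocyte markers (450 and 865 CPM) had them too. Hepatocyte markers (53292 and 33590 CPM) and Kupffer cell markers (378 and 170 CPM) had the reverse, with NASH vehicle 1 highest and CDDO-Me 4 lowest. The part of any of these cell types in the values of the members was not tested.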

How the results depend on the processing

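Counts of members higher were within 1.5 times of the reported ones under every alternative run. The 9 members lower in NASH vehicle against control became 3 with library totals and 1 on log2(TPM + 1), + 0.1 and + 5. The 11 lower in CDDO-Me against control became 3 under each of these. The 9 lower in CDDO-Me against NASH vehicle became 14 with DESeq2, 14 on log2(TPM + 1) and 16 on log2(TPM + 5). Leaving out 1 library gave 6 to 15, with 15 without CDDO-Me 4, when Bambi, Fstl1, Tgfb3, Tgfbr1 and Tgfbr2 were among the calls added and no call was lost. Members higher or lower in the other comparisons kept within that limit without any 1 library. Directions turned mostly with the scaling. In NASH vehicle against control, values with library totals and then on log2(TPM + 1), + 0.1 and + 5 were 0.58, 0.60, 0.73 and 0.33 for Bmp6 (-0.05 with TMM), 0.60, 0.68, 0.76 and 0.46 for Acvr1 (-0.04), 0.61, 0.78, 0.83 and 0.60 for Bmpr1a (-0.01), 0.59, 0.60, 0.68 and 0.40 for Smad1 (-0.04), 0.51, 0.65, 0.68 and 0.55 for Smad4 (-0.12), and 0.02, 0.19, 0.23 and 0.11 for Fst (-0.60). Acvr2b (-0.85) turned to 0.02, 0.03 and 0.01 on the TPM scales. In CDDO-Me against control, the same 4 settings gave 0.47, 0.51, 0.56 and 0.38 for Smad2 (0.0) and 0.24, 0.32, 0.34 and 0.27 for Smad4 (-0.23), and Acvr2a (-0.54) was at 0.0 on the 3 TPM scales. Bmp2k in CDDO-Me against NASH vehicle (-0.32) turned to 0.04 on unique reads. The causes were not tested. Over all tested genes, calls in NASH vehicle against control were 4874 higher and 4945 lower with TMM, and 10905 and 873 on log2(TPM + 1).

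Libraries that share a replicate number were not paired: the correlation of their deviations was above 0.1 in 2 of 12 cases. With the replicate block, CDDO-Me against NASH vehicle kept 2 higher and 9 lower members, with Bmp2k lost and Inhbe gained, NASH vehicle against control kept 30 and 9, and CDDO-Me against control had 24 and 11. Depth limits Gdf3 and Fstl4, with 5 reads each over the control libraries.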
